A study of Mus musculus with 8 samples.

Results

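The Dlk1-Dio3 region is an imprinted gene cluster on mouse chromosome 12, and it is described here together with Begain, the gene that lies beside it. The 7 genes Begain, Dlk1, Meg3, Rtl1, Rian, Mirg and Dio3 were taken by name, of 33073 autosomal and 34631 protein-coding and lncRNA genes in all in the RefSeq table of GRCm38.p6. The span from Begain to Dio3 with 100 kb outside it (chromosome 12, 108932181 to 110381097 in mm10, the same build) covers 1448.92 kb and holds 110 RefSeq genes, of which 61 are miRNA genes, 19 snoRNA genes, 17 lncRNA genes and 5 protein-coding. The genes were chosen with results of the same genotype contrast known, among them a long stretch beside Begain that carried peaks only in the del/del libraries. The contrast is therefore described with every library's value and is not tested.

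H3K27me3, a repressive histone mark, was mapped by chromatin immunoprecipitation and sequencing in neural stem cells of female embryos taken at E14.5 and grown as established lines. Both groups were of a C57BL/6 129/Castaneus mix and shared the X genotype Xist 129-KO/Xist WT-Cast, in which the maternal 129 X carries an Xist deltaA allele and the paternal X is from Castaneus. Cells of the Smchd1 del/del group (2 libraries) had lost the remaining conditional Smchd1 allele through the MSCV-Cre-puro retrovirus. They were selected with puromycin from 24 hours and harvested 7 days after transduction. Cells of the Smchd1 del/fl group (2 libraries) came from the untransduced part of the lines, so loss of Smchd1 cannot be told apart from transduction and selection. The del/fl cells already carry 1 deleted allele. The libraries are called mutant (del/del) and control (del/fl) from here on. Each library was paired with its own whole-cell extract as the peak caller's background, which made 8 samples. Whether the 2 libraries of a group came from separate embryos, and which libraries of the 2 groups share a line, is not stated in the labels, so the spread between them may be technical. The deposited values are lists of broad peaks, so each value below is the percent of a stretch that lies under peaks. They are not split by parental allele.

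Smchd1 is a noncanonical SMC protein that binds chromatin and takes part in X inactivation and in silencing at several imprinted clusters. In the Dlk1-Dio3 cluster the paternal chromosome expresses the protein-coding genes Dlk1, Rtl1 and, less strictly, Dio3, and the maternal chromosome expresses the long noncoding RNAs Meg3, Rian and Mirg, which carry arrays of snoRNAs and miRNAs. Polycomb repressive complex 2 writes H3K27me3, and in mammals it is known to be drawn to CpG-rich DNA that is not transcribed.

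The DNA just before the annotated starts is shown because the members' peaks sit there in some genes and are absent in others. Each line holds the 250 bases before a start, 5′ to 3′ on the gene's strand, from RefSeq (GRCm38.p6), with every CpG in capitals. The motif searched was CG, which reads the same on both strands.
Begain, distal start, chr12:109068243-109068492, minus strand: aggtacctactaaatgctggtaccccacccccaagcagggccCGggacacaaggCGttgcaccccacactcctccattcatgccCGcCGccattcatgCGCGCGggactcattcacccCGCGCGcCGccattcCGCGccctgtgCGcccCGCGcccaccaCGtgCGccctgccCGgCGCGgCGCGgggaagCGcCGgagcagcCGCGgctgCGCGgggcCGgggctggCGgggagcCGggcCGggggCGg
Begain, internal start, chr12:109053099-109053348, minus strand: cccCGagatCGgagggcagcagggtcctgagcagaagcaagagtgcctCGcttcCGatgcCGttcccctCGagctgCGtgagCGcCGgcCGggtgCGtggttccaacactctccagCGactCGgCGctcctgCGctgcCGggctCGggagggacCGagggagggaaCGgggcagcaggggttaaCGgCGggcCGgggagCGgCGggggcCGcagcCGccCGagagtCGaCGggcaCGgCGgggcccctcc
Dlk1, chr12:109452573-109452822, plus strand: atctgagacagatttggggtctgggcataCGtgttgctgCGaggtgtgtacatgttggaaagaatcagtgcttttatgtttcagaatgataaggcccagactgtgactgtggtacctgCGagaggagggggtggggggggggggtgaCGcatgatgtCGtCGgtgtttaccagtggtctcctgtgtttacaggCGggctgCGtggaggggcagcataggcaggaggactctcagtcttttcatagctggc
Meg3, chr12:109540746-109540995, plus strand: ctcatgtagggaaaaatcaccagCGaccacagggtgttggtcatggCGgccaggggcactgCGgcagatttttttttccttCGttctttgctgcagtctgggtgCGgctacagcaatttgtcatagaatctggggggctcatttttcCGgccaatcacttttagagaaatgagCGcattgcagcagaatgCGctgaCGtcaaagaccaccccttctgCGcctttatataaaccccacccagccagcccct
Rian, chr12:109603695-109603944, plus strand: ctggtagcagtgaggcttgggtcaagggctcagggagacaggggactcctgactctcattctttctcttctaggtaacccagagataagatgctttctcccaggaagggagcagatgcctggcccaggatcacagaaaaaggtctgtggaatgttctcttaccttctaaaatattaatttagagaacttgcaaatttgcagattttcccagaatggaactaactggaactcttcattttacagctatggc
Mirg, chr12:109734731-109734980, plus strand: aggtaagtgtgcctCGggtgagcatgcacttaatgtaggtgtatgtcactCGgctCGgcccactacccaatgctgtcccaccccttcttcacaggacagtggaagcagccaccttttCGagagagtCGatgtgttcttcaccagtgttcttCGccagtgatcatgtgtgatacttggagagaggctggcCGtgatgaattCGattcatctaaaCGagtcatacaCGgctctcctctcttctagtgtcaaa
Dio3, chr12:110278980-110279229, plus strand: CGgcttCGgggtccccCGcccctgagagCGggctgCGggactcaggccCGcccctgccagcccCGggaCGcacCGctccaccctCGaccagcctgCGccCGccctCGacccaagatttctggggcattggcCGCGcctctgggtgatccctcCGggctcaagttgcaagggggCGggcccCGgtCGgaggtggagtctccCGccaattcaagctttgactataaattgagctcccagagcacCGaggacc

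The number of CpGs in these windows ran from 34 at the distal Begain start and 31 at the internal one through 21 at Dio3, 10 at Meg3, 10 at Mirg and 8 at Dlk1 to 0 at Rian. Of all autosomal promoter windows of this length, 3.65% held at least as many CpGs as the distal Begain window, 5.36% as many as the internal one, 16.8% as many as Dio3, 38.3% as many as Meg3 and Mirg, and 43.5% as many as Dlk1. Peaks covered 100% of both Begain windows and of the Dlk1, Meg3 and Dio3 windows in all 4 libraries, and 0% of the Mirg window in all 4. The Meg3 and Mirg windows shown thus held the same number of CpGs and differed completely in cover. The window of a further annotated Meg3 start, from 109545148 to 109545397 and not shown, held 0 CpGs and had 0% cover in all 4 libraries. Among 31396 autosomal windows 4.83% had a peak in all 4 libraries, which was 3.28% of those with under 10 CpGs, 7.89% of those with 10 to 19 and 6.67% of those with 20 or more. The Rian window, with no CpG, was covered to 100% in both mutant libraries and to 18.4% and 38% in the control libraries.

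H3K27me3 in the cluster lay in a few separate domains, over Begain, Dlk1, the start of Meg3, the start of Rian, Dio3 and a stretch near the lncRNA gene Gm34785, and the long intervals between them were almost bare. Mirg and the DNA between Rian and Mirg carried no peak in any library. The next region past Mirg, with a peak of mutant replicate 2 alone, lay 10978 bp beyond it. Between the genotypes most of this pattern was shared. Both mutant libraries had more cover than both control libraries at the start of Rian, where the annotated Rtl1 gene has its highest coordinate. In the DNA upstream of Begain they also had more. The same order held for tiles at Wdr25, Gm3379, Gm34785 and Dio3. Both had less cover over the body of Dlk1, where only 0.127 kb was marked in both controls and in neither mutant. Between Dlk1 and Meg3 both mutants were also lower, but only 0.012 kb was marked in both controls and in neither mutant.

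**Figure D1:**
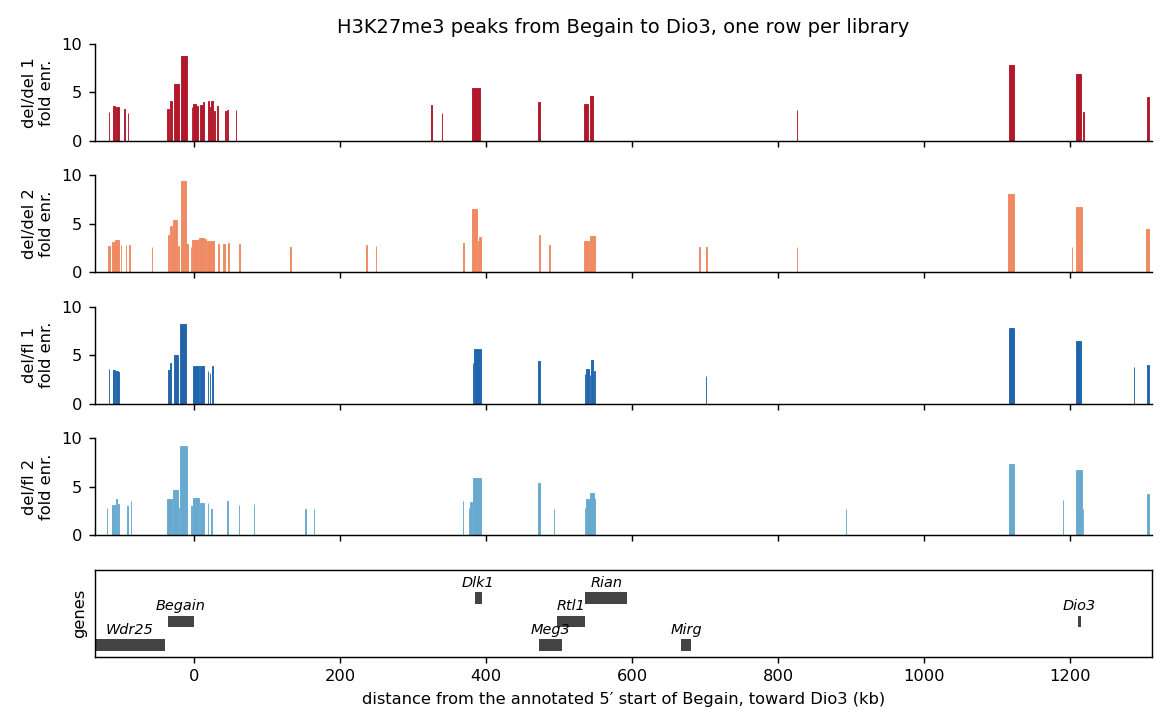
Peaks of the 4 H3K27me3 libraries along the span, as bars on a line per library against distance in kb from the Begain 5′ start, with the member genes and Wdr25 below. The same domains appear in all 4 libraries, and Mirg and the interval between Rian and Mirg hold no peak.

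The map of peaks along the span shows 33 and 40 peaks in the mutant libraries against 26 and 36 in the control libraries. In these lists, replicate 2 of each genotype reaches down to weaker peaks. The lowest pileup, read as the average height of stacked tags over a peak, is 6 in both replicate 1 libraries. It is 5 in both replicate 2 libraries. In the span, 20 peaks of mutant replicate 2 and 14 of control replicate 2 had a pileup under 6. Tags used by the peak caller ran from 11793402 to 14064030 per library, and peaks of all chromosomes from 32971 to 45566. Autosomal peaks covered 32.9 and 44.1 Mb in mutants against 35.8 and 47.5 Mb in controls, so in both genotypes replicate 2 was the higher.

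Peaks covered 6.51% and 8.10% of the span in the mutant libraries against 5.38% and 6.87% in the control libraries. The means were 7.30% ± 1.12 (SD, n = 2) and 6.12% ± 1.06 (SD, n = 2), and the groups overlapped, since mutant replicate 1 lay below control replicate 2. The difference of 1.18 points was close to the SD within each group. With only peaks of a pileup of at least 6, the floor of both replicate 1 lists, the difference was 0.856 points and both mutants were above both controls. As a share of each library's own autosomal cover, the span took 0.287% and 0.266% in mutants against 0.218% and 0.210% in controls. On that scale both mutant libraries lay above both control libraries. With 2 libraries against 2, no exact two-sided permutation test can give a p under 0.333.

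Merging the 4 lists gave 53 regions in the span, of which 13 had a peak in all 4 libraries and 32 in only 1. The 13 shared regions had a median length of 8107 bp, from 2151 to 17746 bp, and held 83.6% to 97.9% of each library's cover of the span. The 32 regions of a single library were short, with a median of 525.5 bp. They came mostly from the replicate 2 libraries, 13 from mutant replicate 2 and 12 from control replicate 2, against 6 and 1 from the replicate 1 libraries.

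Begain encodes brain-enriched guanylate kinase-associated protein, a protein of the postsynaptic side of synapses. The values at its body, of which peaks covered 62.9% and 64.9% in mutants against 53.3% and 71.3% in controls, overlapped between the genotypes. Within 2.5 kb of either end the cover was 64.9% and 60.4% in mutants against 64.8% and 76.6% in controls, again overlapping. This placed Begain above 98.3% of autosomal genes by mean cover of the ends. The highest peaks of the whole span lay inside the gene, in the region 109048472 to 109060229 that contains the internal start shown above. Their fold enrichment over local background, the authors' deposited value for each peak, reached 8.76 and 9.46 in mutants against 8.24 and 9.14 in controls. By pileup these peaks were in the top 0.683% to 1.20% of their own lists.

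**Figure D2:**
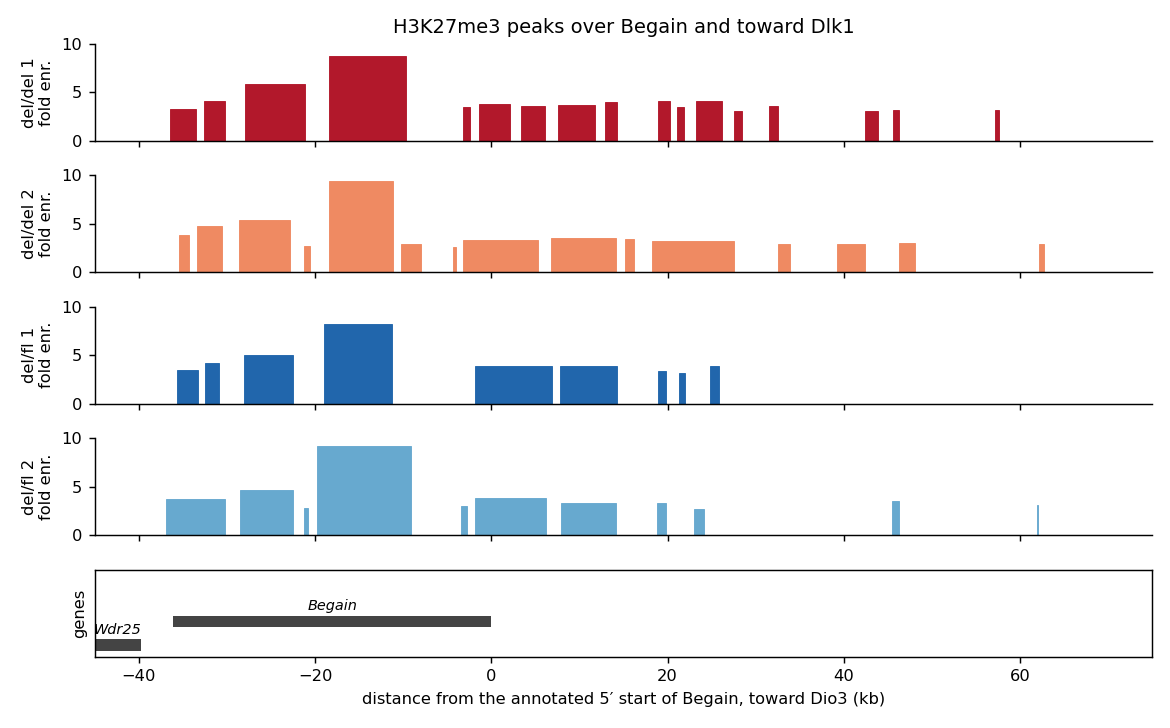
Peaks upstream of Begain in each library, with distance from the annotated Begain 5′ start in kb on the horizontal axis and 1 line per library. Before the first gap of over 10 kb, peaks reach 46.2 and 48.0 kb in the mutant libraries against 25.8 and 24.1 kb in the control libraries. The peaks of mutant replicate 2 past 27.5 kb have pileups under 6, the floor of both replicate 1 lists.

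Upstream of Begain the marked DNA went on past the distal start in all 4 libraries. Before the first gap of over 10 kb, a rule chosen after the values were seen, it reached 46.2 and 48.0 kb from the start in mutants against 25.8 and 24.1 kb in controls. The covered DNA within that reach was 19.4 and 29.3 kb in mutants against 16.0 and 14.8 kb in controls, and the reach differed more than the amount of covered DNA. The reach in mutants depends on the gap allowed, since mutant replicate 1 has a gap of 9.87 kb. It was 32.5 and 33.9 kb with a gap of 5 kb, 32.5 and 48.0 kb with 8 kb, and 57.6 and 62.7 kb with 15 kb. It was the same in controls under all 4 rules, and control replicate 2 has its next peak after a gap of 21.3 kb. Within these reaches, the peaks of mutant replicate 2 past 27.5 kb had pileups of 5.71 to 5.89. Those lie under the floor of 6 in both replicate 1 lists, so they drop out at that floor. The last peak of control replicate 2 before its gap had a pileup of 5.02 and drops out too. In the 10-kb tile from 109090001 to 109100000 peaks covered 41.4% and 57.7% in mutants against 12.2% and 11.2% in controls. Both mutant libraries lay above both control libraries there. The plot of peaks upstream of Begain shows that control replicate 2 has further isolated peaks beyond its gap.

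Regions with peaks in both mutant libraries and in no control library, gained regions for short, were among the values known when the genes were chosen. There were 3 in the span, of which 2 lie at or beyond the end of that tile, and 0 in the opposite direction, against 1.81% of all autosomal regions gained and 2.38% lost by the same rule. The longest, from 109107411 to 109112101, measures 4691 bp and ranked 4 by length among 841 autosomal regions of its kind. Its mutant peaks, of 1469 and 3222 bp, only abut and share 0 bp, and it was the only 1 of those 841 regions in which that was so. The second, from 109099785 to 109102128, is 2344 bp long with 12 bp shared by both mutant libraries. The third, from 109894461 to 109894770, is 310 bp long with 196 bp shared, and lies over the pseudogene Gm3379. The highest pileup in these 3 regions was 7.59, 6.70 and 6.76 in mutant replicate 1, in order of position, and 5.88, 5.71 and 5.08 in mutant replicate 2. The latter are below the weakest peak that either replicate 1 list holds, and with only peaks of a pileup of at least 6 the count of gained regions was 0.

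Counted base by base, 147 kb of the span lay under a peak of at least 1 library and 61.2 kb under peaks of all 4. Of the former, 5.50 kb were marked in both mutant libraries and no control library, which is 3.73%, and 1.26 kb in the opposite way, which is 0.854%. Over all autosomes these shares were 2.13% and 3.57%. Nothing is read from these shares, nor from the other counts of this contrast, since the genes were chosen with it known. The DNA between Begain and Dlk1 held 2.29 kb of the former kind and 0.217 kb of the latter. Within Begain itself the order was turned, with 0.328 kb against 0.779 kb.

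Dlk1, a transmembrane relative of the Notch ligands that lacks their Notch-activating DSL domain, carried a domain over its start and most of its body. The body was covered to 71.8% and 60.6% in mutants against 79.3% and 78.6% in controls. Both mutant libraries were the lower ones, by 12.8 points in the mean (66.2% ± 7.94 against 79.0% ± 0.476, SD, n = 2 each). Dlk1 was the only member whose body was lower in this sense, and 14.8% of autosomal genes with a peak over their body were. Only 0.127 kb of the Dlk1 body was marked in both controls and in neither mutant. That is 1.48% of its bases under any peak, against 3.57% over all autosomes. The 2 mutants thus lacked cover mostly over different bases. The ends of Dlk1 were covered to 50% and 50.6% in mutants against 41.8% and 50.5% in controls. The body and ends were taken from the gene start at 109452485, while the window shown above precedes a start at 109452823. Measured from the latter, the domain began 3.249 and 3.244 kb upstream in mutants against 2.677 and 2.709 kb upstream in controls. It ended 7.456 and 8.068 kb downstream in mutants against 8.268 and 8.195 kb downstream in controls. Control replicate 2 had a further peak close before its domain, from 109446707 to 109448947, which lies upstream of the first base of both mutant domains, so the upstream order depends on where the domain is taken to begin. The highest fold of its peaks was 5.44 and 6.52 in mutants against 5.63 and 5.86 in controls, with no order between the genotypes. With only peaks of a −log10 q of at least 5 the difference of the body was -28.4 points. That larger value came from mutant replicate 2 alone, whose body peaks with 2.07 and 2.85 dropped out. The difference was -7.15 points without mutant replicate 2 and -18.4 points without mutant replicate 1.

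Rtl1, a protein-coding gene derived from a retrotransposon and needed in the placenta, is annotated from 109564900 to 109604418 and so overlaps both Meg3 and the start of Rian. Its body was covered to 3.57% and 4.46% in mutants against 0.547% and 1.30% in controls, with both mutant libraries higher. It was the only member with a higher body in this sense, against 6.74% of autosomal genes with a peak over their body. With only peaks of a −log10 q of at least 5 the difference at Rtl1 was 0, and Begain was instead the member with a higher body, by 10.1 points. At its ends the cover was 39.1% and 42.6% in mutants against 19.02% and 22.8% in controls. All of this cover lay at the end that meets Rian, so Rtl1 and Rian do not count as separate observations.

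Rian, the host transcript of C/D box snoRNAs, was covered over its body to 14.46% and 21.003% in mutants against 12.96% and 18.5% in controls, which overlap. At its ends the values were 34.4% and 37.9% in mutants against 14.3% and 18.0% in controls, a difference of 19.97 points in the mean (36.1% ± 2.47 against 16.2% ± 2.64, SD, n = 2 each). Rtl1 and Rian were the 2 members whose ends were higher in both mutant libraries, and none was lower. Of autosomal genes with a peak at their ends, 6.36% were higher and 15.5% lower. The domain began 0.938 and 1.287 kb before the start of Rian in mutants against 0.420 and 0.095 kb before it in controls, and ended 11.0 to 13.3 kb inside the gene in all 4 libraries. The longest stretch of the span marked in both mutant libraries and in no control library was 793 bp at this start, from 109604362 to 109605154. The domain was broken into 5 and 4 peaks in controls and 2 and 2 in mutants. With only peaks of a −log10 q of at least 5 the difference at the ends of Rian and of Rtl1 was 0, since no peak was left there. The highest −log10 q in these windows was 3.26 and 2.03 in mutants against 2.56 and 2.57 in controls. With windows of 1 kb in place of 2.5 kb it was 40.1 points at Rian and 35.3 at Rtl1, and with windows of 5 kb it was 9.36 and 7.10 points.

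**Figure D3:**
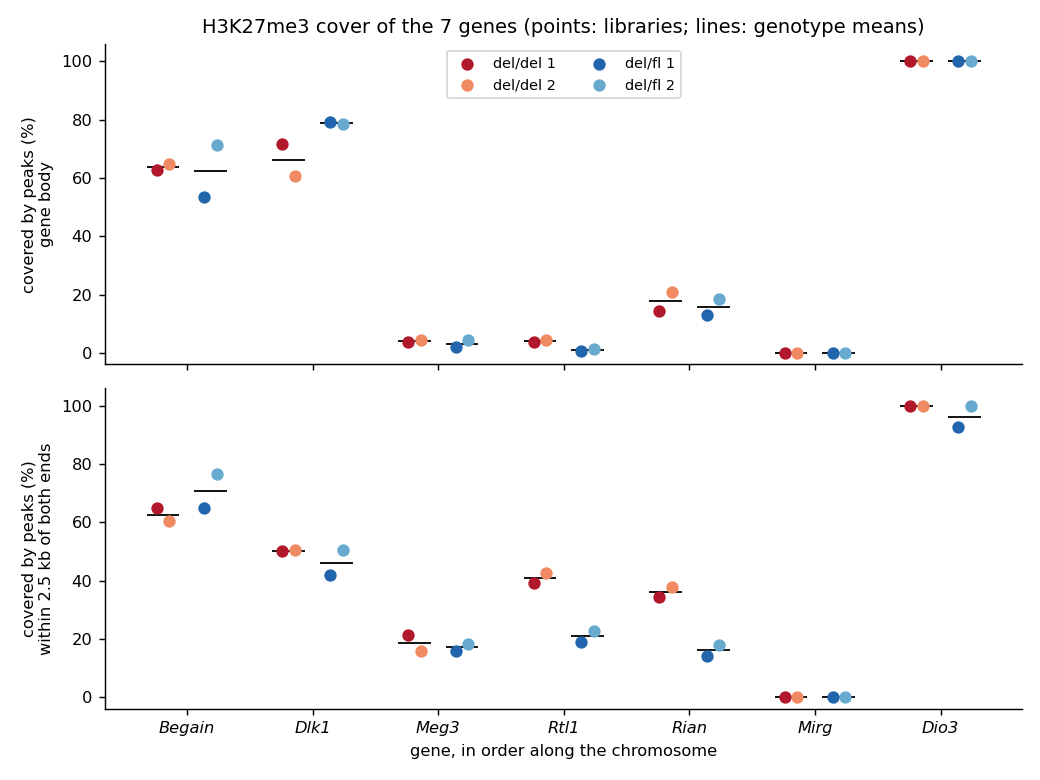
Percent of each member's body and of the 2.5 kb to each side of its ends under peaks, with 1 point per library and a bar at the mean of each genotype. The ends of Rtl1 and Rian are higher in both mutant libraries, the body of Dlk1 is lower in both, and Mirg lies at 0 throughout.

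Meg3, the lncRNA whose promoter region is methylated on the paternal allele, had a short domain at its start. It spanned 1.60 to 2.13 kb over all 4 libraries and began 0.792 to 1.02 kb upstream. The body was covered to 3.67% and 4.31% in mutants against 1.88% and 4.29% in controls, and the ends to 21.3% and 16.0% in mutants against 15.9% and 18.2% in controls. Neither set separated the genotypes. The fold of the peak at the start was 4.04 and 3.88 in mutants against 4.45 and 5.36 in controls. Mirg, a host of miRNAs, had 0% cover of body and ends in all 4 libraries, as did 25008 of the 33073 autosomal genes at their ends. The plot of cover by member shows these values for each library.

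Dio3, the type 3 deiodinase that inactivates thyroid hormone, was covered along its whole body in all 4 libraries. The ends were covered to 100% in both mutant libraries and to 92.6% and 100% in controls, and Dio3 stood above 99.2% of autosomal genes by this measure. The domain ran 8.02 and 8.52 kb in mutants against 6.36 and 8.004 kb in controls, and its highest fold was 6.94 and 6.78 in mutants against 6.45 and 6.73 in controls. It also took in the start of the antisense lncRNA gene Dio3os, whose body was covered to 84.5% and 74.3% in mutants against 44.3% and 81.9% in controls. The lower value of control replicate 1 sets that spread.

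Of the 58 miRNA hairpins of the span with a RefSeq sequence, 3 overlapped a peak of any library and 55 did not. Mir341 and Mir1188 lie inside Rian (109611500 to 109611595 and 109611822 to 109611941), and Mir1247 lies by Dio3os (110278048 to 110278129, minus strand). Peaks covered Mir1247 in all 4 libraries, and Mir341 and Mir1188 in both mutant libraries and in control replicate 2 but not in control replicate 1. The mature miRNAs of these 3 hairpins are shown with the seed, bases 2 to 8, in capitals, from RefSeq (GRCm38.p6).
mmu-miR-341-5p: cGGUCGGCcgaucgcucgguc
mmu-miR-341-3p: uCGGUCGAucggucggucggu
mmu-miR-1188-5p: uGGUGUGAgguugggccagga
mmu-miR-1188-3p: uCCGAGGCuccccaccacacccugc
mmu-miR-1247-5p: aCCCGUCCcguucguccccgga
mmu-miR-1247-3p: cGGGAACGucgagacuggagc

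These mature miRNAs share no seed with one another. The bare hairpins included all 15 within the annotated Rtl1 gene, all 10 within Mirg and all 28 between the members. None of the 19 snoRNA genes overlapped a peak, so the small RNA arrays of the cluster lay almost wholly on DNA without peaks. Peaks covered only 5.38% to 8.10% of the whole span in each library, so most of its other DNA was bare too.

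The intervals between the members differed widely. Between Begain and Dlk1 (384 kb) peaks covered 6.16% and 9.32% in mutants against 4.52% and 6.03% in controls, with both mutant libraries above both control libraries. The means were 7.74% ± 2.24 and 5.28% ± 1.06 (SD, n = 2 each), so the difference of 2.47 points was near the SD of the mutant group. Between Mirg and Dio3 (530 kb) the values were 2.18% and 2.44% in mutants against 1.82% and 2.16% in controls. The groups were again apart there, by a margin between neighbouring values far smaller than the spread within either group. Most of that cover was 1 domain from 110183795 to 110191809, which begins 151 bp from Gm34785 and held peaks of 7.90 and 7.36 kb in mutants against 6.81 and 7.47 kb in controls. Its highest fold was 7.83 and 8.03 in mutants against 7.79 and 7.33 in controls, second in the span to the peaks inside Begain. From Rian to Mirg no library had a peak, and between Dlk1 and Meg3 the cover was 1.02% to 1.32%. That was 1.006 and 0.792 kb in mutants against 1.018 and 1.023 kb in controls, all of it in the peak at the start of Meg3.

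**Figure D4:**
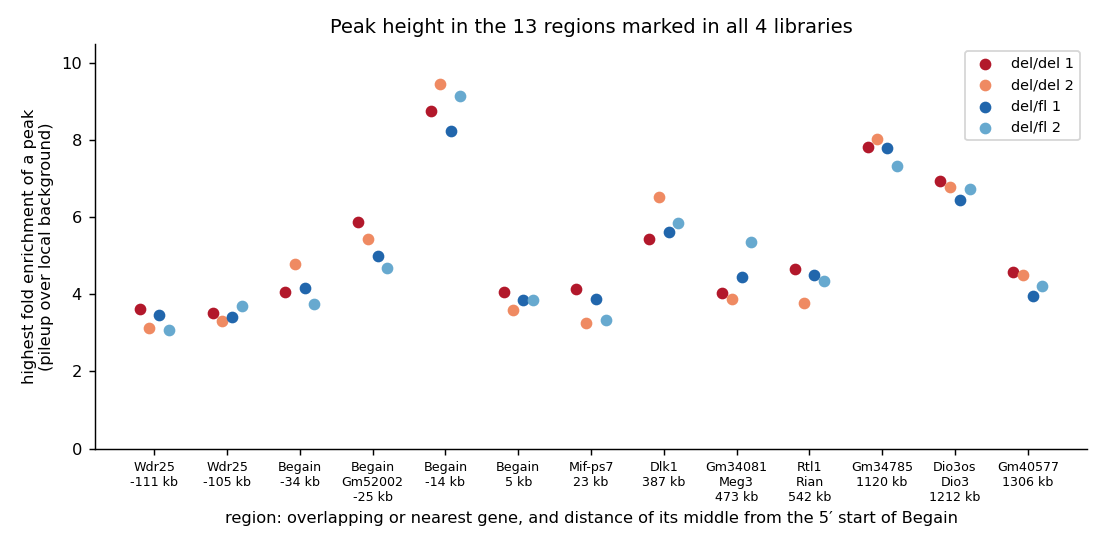
Highest fold enrichment over local background, the authors' deposited value, in each merged region that has a peak in all 4 libraries, with 1 point per library and regions in order of position. The region inside Begain and the one near Gm34785 stand above the others in all 4 libraries. The values of the genotypes overlap in 8 of the 13 regions, a count given without the share over all autosomal regions.

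The plot of highest fold by region sets these values side by side. Of the 13 shared regions, those inside Begain, at Dlk1, near Gm34785 and at Dio3 were the only 4 with a fold over 5 in every library. Both mutant values were above both control values in 4 of the 13 regions and below them in 1, the start of Meg3, and they overlapped in 8. The 4 were the region over Begain and Gm52002 (5.88 and 5.43 in mutants against 4.99 and 4.69 in controls), those near Gm34785 and at Dio3, and the last region of the distal flank (4.57 and 4.50 against 3.97 and 4.21). Each fold is relative to its own library's background, so these orders show no change by themselves. No share of such orders over all autosomal regions is set beside these counts, and nothing is read from them. In the proximal flank the last regions before Begain lie in Wdr25, a WD-repeat gene whose body was covered to 8.42% and 11.9% in mutants against 7.34% and 9.35% in controls.

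In tiles of 10 kb, 47 of 146 tiles of the span had a peak and 99 had none. Both mutant libraries were above both control libraries in 10 of the 47, which is 21.3%, and below in 2, which is 4.26%. Over all autosomal tiles with a peak these shares were 6.53% and 11.6%. The tile from 109600001 to 109610000, at the start of Rian, was one of the 10, with 55.7% and 63.8% in mutants against 38.2% and 53.6% in controls. Neighbouring tiles share domains, so the 10 tiles do not stand for 10 separate changes.

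For the other genes that belong with the members, cover of the ends was set beside that of all autosomal genes, of which 24.4% had a peak there. The shares called among the latter were 6.36% (higher) and 15.5% (lower), and their median difference was -0.97 points. Of 46 annotated genes from other imprinted clusters, 23 had a peak, 2 were higher and 7 lower in both mutant libraries, with a median difference of -3.76 points. Magel2, in the Prader-Willi cluster, had 12.9% and 8.05% in mutants against 35.5% and 32.7% in controls. Mkrn3, of the same cluster, had 16.6% and 18.1% in mutants against 11.2% and 11.6% in controls. Among 11 Notch ligands and receptors related to Dlk1, 4 had a peak, 2 were higher and 1 lower, with a median difference of 0.62 points. Dlk2, the closest relative of Dlk1, had 37.2% and 37.0% in mutants against 27.8% and 29.9% in controls. Dll3, a divergent Notch ligand, had 0% and 0% in mutants against 8.44% and 12.1% in controls. Of 8 genes of thyroid hormone handling, 3 had a peak, 0 were higher and 1 lower, with a median of -2.87 points. That gene was Slco1c1, a thyroid hormone transporter, with 17.8% and 34.5% in mutants against 36.1% and 35.6% in controls. Of 11 postsynaptic genes beside Begain, 7 had a peak, 1 was higher and 0 were lower, with a median of 0.00. That gene was Shank2, a scaffold protein of the postsynaptic density, with 43.7% and 50% in mutants against 37.9% and 41.2% in controls. Of 15 genes outside the cluster on either side, 3 had a peak, 0 were higher and 1 lower, with a median of -7.86 points. That gene was Degs2, a sphingolipid desaturase, with 38.7% and 38.6% in mutants against 47.6% and 45.3% in controls.

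A map of a repressive mark cannot show which genes the cells expressed, and it was read only for peaks at markers of cell types. Of 18 neural stem cell markers 15 had no peak at their ends, and the rest were Pax6, Prom1 and Sox1. Over all 18 the mean cover of the ends was 0.500% and 1.86% in mutants against 0.733% and 2.31% in controls. Of 10 neuronal markers 9 had a peak, and the mean cover of their ends was 39.8% and 44.9% in mutants against 41.7% and 43.9% in controls. Peaks lay at 3 of 6 oligodendrocyte markers, 1 of 6 microglial and blood markers, 3 of 6 endothelial and mural markers, 2 of 6 fibroblast markers and 0 of 6 markers of pluripotent cells. The part of other cells in the values at the cluster was not tested.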

How the data were processed

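Each H3K27me3 library has its own broad peak list, made by the authors with MACS2 2.1.0.20140616 and the matching whole-cell extract as background, per the file headers. The headers give a q-value cutoff of 0.05, 1 tag per position and background windows of 1000 and 10000 bp. Per the submitters' processing notes, bcl2fastq, Bowtie 0.12.9 and mm10 were used. Tags of the extracts came to 20770551 and 31629404 for the mutants and to 19579060 and 15525700 for the controls. The signal used is the deposited pileup of tags over a peak. The broad lists name no summit and their pileups are mostly not whole numbers. Pileup, fold and q-value are therefore read as averages over a whole peak, which depend on how a domain was split into peaks. The fold used is the deposited ratio to local background. The strength of a peak was read from the −log10 q-value that the authors' peak caller deposited beside the −log10 p-value. Broad lists hold weaker stretches too, here up to a q-value of 0.0983.

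Covered bases were counted with Python 3.11.15, numpy 2.4.6 and pandas 2.3.3, and drawn with matplotlib 3.10.9. Genes, promoter windows and miRNAs came from RefSeq tables of GRCm38.p6, and Rtl1 has no promoter window shown. Peaks that overlapped or touched were merged into regions. Gained regions have peaks of both mutants and of neither control, and lost ones the reverse. Genes and tiles count as higher when each mutant value exceeds each control value, and as lower in the reverse case, among those with a peak in any library. No contrast was tested. Precision is limited by 2 libraries per group, and a stretch without a peak is one that did not pass the caller, not one shown to lack the mark. The code for intervals was checked on simulated peaks. Members and gene lists were chosen with earlier results of these data known. The lists were other imprinted genes, Notch relatives of Dlk1, thyroid hormone handling, postsynaptic genes, genes on either side of the cluster, and 7 sets of cell type markers. All members were named, with other genes and miRNAs of the span that carry a peak, regions that were gained, lost or at least 2 kb long, and listed genes as examples.

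Alternatives were stricter peaks, equally long lists, omission of single libraries, a replicate block, other flanks, windows, tiles and merging, and scaling by autosomal cover.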

Additional observations from a re-analysis of the deposited data

How the results depend on the processing

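The difference of the span's cover, 1.18 points, kept its sign under every alternative run. With all 4 libraries it ran from 0.183 points with peaks of a −log10 q of at least 5 to 1.73 points scaled by autosomal cover. The groups, which overlapped, came apart with a pileup of at least 6 (0.856 points), scaled by autosomal cover, without mutant replicate 1 and without control replicate 2. Leaving out 1 library gave 0.384 to 1.97 points, lowest without mutant replicate 2 and highest without mutant replicate 1. With a replicate block it was again 1.18 points, with pair differences of 1.13 and 1.22 points. The labels do not say that the numbers pair the samples. The 3 gained regions became 0 with the stricter peaks and 0 with a pileup of at least 6, an alternative added after the data were seen. They were 2 with lists of equal length, with merging up to 3 kb, with merging only of peaks that share a base, and with peaks over at least 50% of a region. Leaving out a library makes non-overlap easier by construction. It gave 3 to 16 gained regions (16 without mutant replicate 1, 10 without mutant replicate 2) and 0 to 12 lost ones against 0 (12 without control replicate 1, 1 without mutant replicate 2 or control replicate 2). Members with higher ends, 2, became 0 with the stricter peaks and ran from 2 to 5 (5 without control replicate 2), and those with lower ends from 0 to 1 (1 without mutant replicate 1 or control replicate 1). Members with a higher body, 1, became 2 with lists of equal length and 2 with a pileup of at least 6, and ran from 1 to 4 (4 without control replicate 2, 3 without mutant replicate 1). Those with a lower body ran from 1 to 2 (2 without control replicate 1). Higher tiles, 21.3%, ran from 21.7% to 54.5% (54.5% without mutant replicate 1, 42.5% without control replicate 2, 39.0% without mutant replicate 2). Lower tiles, 4.26%, were 7.69% with the stricter peaks and ran from 10% to 32.6% (32.6% without control replicate 1, 14.6% without mutant replicate 2, 11.4% without mutant replicate 1, 10% without control replicate 2). The reach past Begain under other gaps, added after the data were seen, stands beside its value. The cause of these shifts beyond the easier non-overlap was not tested. Of 112 alternative values for single members, 92 stayed within 1 SD of the replicates, 20 moved further and 0 of the called ones changed sign. The 92 include every value of Mirg and of the body of Dio3, where the difference was 0 under all settings and could not move. The ends of Rtl1 and Rian were among those that moved, with stricter peaks, lists of equal length, a pileup of at least 6 and both other windows.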
